A study of Mus musculus with 6 samples.

Results

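The genes described here encode the proteins of the mitochondrial ribosome. They were taken as all genes whose platform symbol begins with Mrpl or Mrps followed by a number, each represented by its probe of highest mean raw signal. This gave 76 genes of 19057 with a single symbol on the array, 48 named for the large subunit and 28 for the small subunit. RNA came from B220+CD43+ cells, sorted from the bone marrow of mice and called pre-B cells in the labels, and was hybridised to 6 Illumina BeadChips read in a single colour. The labels give 3 arrays as Fnip1-/- and 3 as wild type, and name no treatment. In the scanner headings 3 arrays are marked KO, each with the tag LPAB - Yugioh, and 3 are marked WT. No heading explains this tag, and it was not read here as a strain or an allele. Strain, age, the form of the Fnip1 allele and whether animals were pooled are not otherwise stated in the labels. Each p-value therefore reflects how much these samples vary, which may be technical. The letters A, B and C name the arrays of each group by column position and carry no pairing.

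The mitochondrial ribosome translates the few proteins that mitochondrial DNA encodes, all of them subunits of respiratory complexes or of ATP synthase. Its RNAs are made inside the organelle, whereas its proteins, some related to bacterial ribosomal proteins and others without a bacterial counterpart, are encoded in the nucleus and imported. The small subunit binds the mRNA and decodes it, and the large subunit joins the amino acids and holds the exit tunnel next to the inner membrane. The product of Fnip1 binds folliculin and acts in nutrient and energy signalling. The question that the comparison addresses is how gene expression differs between cells with and without it.

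Signals are given on a log2 scale after background correction and quantile normalization, and each difference is the mean of the arrays labelled Fnip1-null minus that of the arrays labelled wild type. Between 17442 and 18294 of 45281 probes were detected per array at a detection p under 0.05, and the number of arrays limits the precision. Fnip1 signal itself was higher on the arrays labelled Fnip1-null, by 0.95 (limma adjusted p = 0.000665). Where its probe lies relative to the altered part of the gene is not stated, so this level does not bear out the labels, and directions below are those of the labels. Among B-lineage markers Cd79b lay between 12.39 and 13.20, Igll1 between 12.90 and 13.67 and Vpreb1 between 12.12 and 12.45, while the probe for Pax5 was detected on no array. Of 7 tested B-lineage markers 0 rose and 2 fell, Cd79b by 0.49 and Ebf1 by 0.52, and the median of the 7 was 0.05. Ptprc (0.31), Igll1 (0.36) and Vpreb1 (0.12) had positive differences without a call. Of 6 tested T cell markers Lat (2.42) and Cd3e (1.20) rose and Thy1 fell by 0.90, with summed linear signals of 1789 to 2219 on the arrays labelled Fnip1-null and 1147 to 1370 on the others. None of 4 natural killer, 8 neutrophil and monocyte, 2 erythroid or 3 plasmacytoid dendritic cell markers was called by limma, against 1, 2, 0 and 0 with an unadjusted p under 0.05. Cd8a, Ncr1, Itgam and Ccr9 were detected on no array. Summed neutrophil and monocyte signals were 17577 to 45098 on the arrays labelled Fnip1-null and 16645 to 29905 on the others. The part of these markers in the values below was not tested. In such bulk samples, fewer cells of a type and less RNA per cell cannot be told apart.

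No mitochondrial ribosomal protein gene passed the test between the genotypes at its chosen probe, while a further probe of Mrpl49 did, as given below. Of the 76 genes 72 were tested, since these were detected on 3 or more of the 6 arrays, and limma called 0 higher and 0 lower at an adjusted p under 0.05. Over all 9676 tested genes 13.1% were called, 7.89% higher and 5.25% lower. At an unadjusted p under 0.05 there were 2 members, Mrpl49 and Mrpl15, where the share of all tested genes was 27.3%. Differences lay between -0.73 (Mrpl35) and 0.34 (Mrpl15), with a median of -0.03 against 0.01 over all tested genes. In the members, 27 differences were positive and 45 negative, where over all tested genes 5048 were positive and 4628 negative.

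The intervals limit how large a difference could have been missed. For 69 of the 72 genes the 95% interval lay within 1.5-fold in either direction, and for 71 within 2-fold. Over all tested genes the interval stayed within 1.5-fold for 6723 of 9676. The median standard error was 0.11 in the members and 0.12 over all tested genes. The exceptions at 1.5-fold were Mrpl35, whose interval ran from -1.54 to 0.08, Mrpl49 (-0.61 to -0.13) and Mrpl15 (0.08 to 0.60). The median size of a difference, without regard to sign, was 0.10 in the members and 0.17 over all tested genes. The members were also brighter, with a median log2 level of 10.02 against 7.73 over all tested genes. The part of signal level in these comparisons was not tested. For 10 members the groups of arrays did not overlap, 4 of them higher with the Fnip1-null label and 6 lower. Of all tested genes 33.0% were separated in this way, 18.1% higher and 14.9% lower. The smallest two-sided p that an exact permutation test of 3 arrays against 3 can give is 0.1, so that test cannot pass 0.05 for a single gene. The p-values given here rest on the limma model, which shares the spread across genes.

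**Figure D1:**
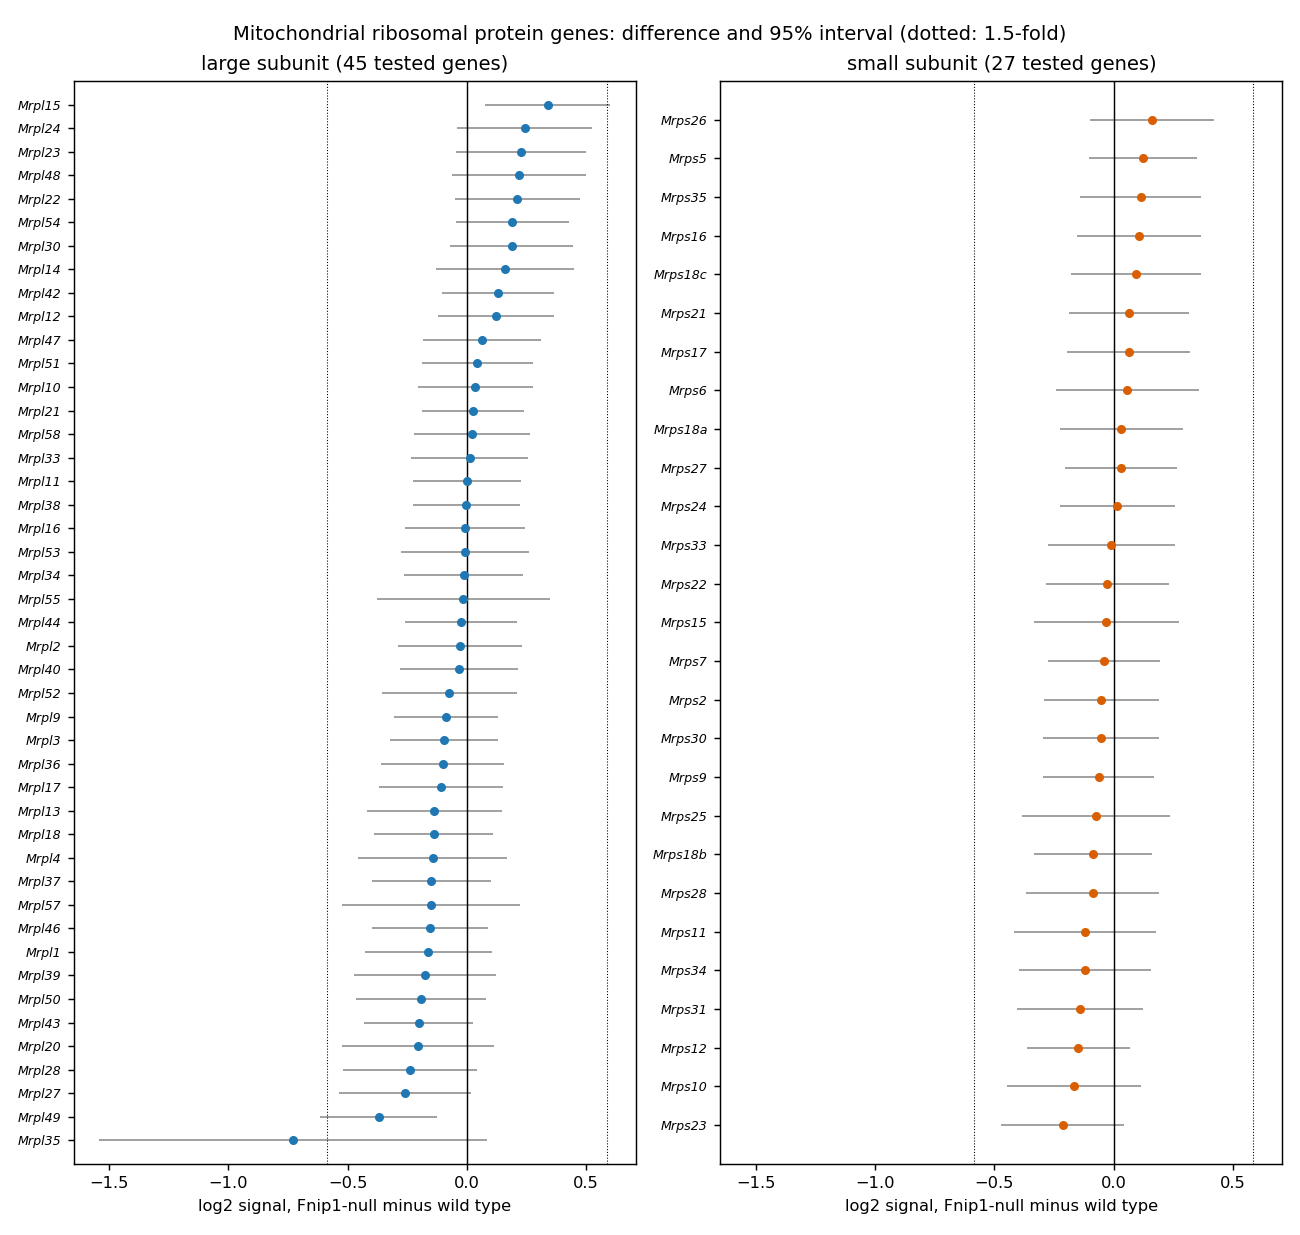
Difference in log2 signal (arrays labelled Fnip1-null minus arrays labelled wild type, 3 against 3) for each of the 72 tested genes, as points with 95% intervals from limma, for 45 large-subunit genes in the left panel and 27 small-subunit genes in the right panel. Dotted lines mark 1.5-fold, and the intervals of Mrpl35, Mrpl49 and Mrpl15 are those that cross them.

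The subunits did not separate. The median difference was -0.03 in each, with 45 tested large-subunit genes ranging from -0.73 to 0.34 and 27 small-subunit genes from -0.21 to 0.16. Large-subunit differences varied more among themselves (SD 0.19) than small-subunit differences (SD 0.10), and Mrpl35 is the farthest from the rest. The median of the large subunit minus that of the small subunit was 0.004. It was the same when Mrps18a and Mrps30, which structures of the mammalian ribosome place in the large subunit, were counted there. This difference was negative in 5 of the 6 fits that left out 1 array, down to -0.04, and positive (0.02) without array B labelled wild type, so it has no settled sign.

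Across single arrays the members stood highest on array A labelled wild type. For each array the members' mean deviation from their own means over the 6 arrays was taken. On the arrays labelled Fnip1-null it was -0.04 (A), -0.02 (B) and 0.01 (C), and on those labelled wild type 0.12 (A), -0.03 (B) and -0.04 (C). The groups overlapped, and array A labelled wild type stood apart from its own group by more than the groups differed. That array held the highest signal of 34 of the 72 genes and the lowest of 1. Large and small subunit moved together there, at 0.13 and 0.11. Over all tested genes the deviation of each array lay between -0.01 and 0.01. Xist stood at 4.22 and 4.62 on the A arrays and between 9.51 and 10.79 on the other 4, and array A labelled Fnip1-null was not high in these genes. With that split as a block limma called 0 members, and Mrpl49 had an adjusted p of 0.0533 and Mrpl15 of 0.0723. Without array A labelled wild type the median difference of the members changed from -0.03 to 0.02, and limma called Mrpl15 higher (0.44, adjusted p = 0.046).

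**Figure D2:**
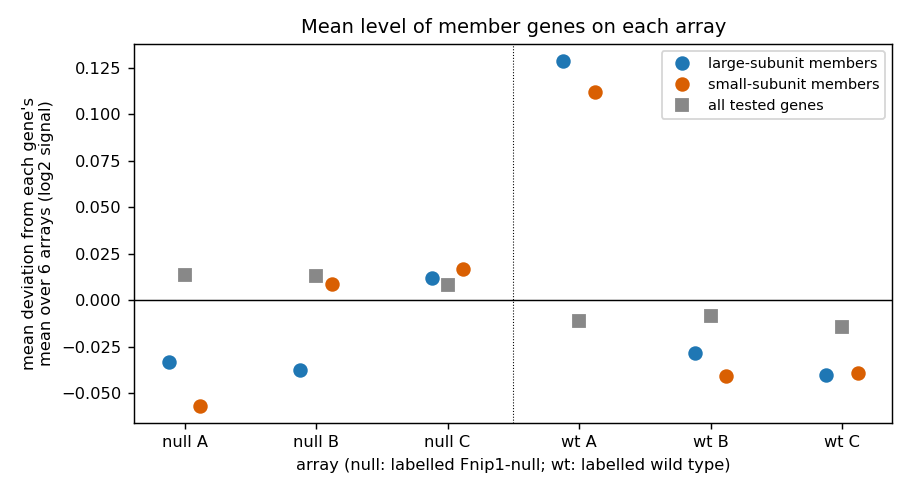
Mean deviation in log2 signal of 45 large-subunit genes, 27 small-subunit genes and all 9676 tested genes from each gene's own mean over the 6 arrays, by array (null: labelled Fnip1-null, wt: labelled wild type). Array A labelled wild type stands at 0.13 and 0.11 for the subunits, and the other 5 arrays lie between -0.06 and 0.02.

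Mrpl49, a large-subunit protein, came nearest to the threshold among the members' chosen probes. Its chosen probe read 10.54, 10.62 and 10.77 on arrays A, B and C labelled Fnip1-null and 11.02, 10.94 and 11.08 on those labelled wild type. The groups did not overlap. The difference was -0.37 (SE 0.11, 0.77-fold, limma adjusted p = 0.0518). Mrpl49 had 3 further tested probes, and each gave a lower signal on the arrays labelled Fnip1-null, at -0.40, -0.32 and -0.60, with limma adjusted p = 0.0628, 0.119 and 0.0105. The last of these, the dimmest, is called lower. It read 6.93, 6.83 and 7.11 on the arrays labelled Fnip1-null and 7.68, 7.49 and 7.48 on those labelled wild type, again without overlap. With the probe of largest variance, with the mean of all tested probes or with some other settings, Mrpl49 was called lower (adjusted p between 0.0105 and 0.0497 in 7 settings), and with any 1 array left out it was not (0.0557 to 0.135). Over all 18172 tested probes 14.2% were called, 7.70% higher and 6.51% lower.

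Mrpl15, the counterpart of a bacterial large-subunit protein, had the largest positive difference among the members. Its chosen probe read 10.23, 10.25 and 10.20 on the arrays labelled Fnip1-null and 10.09, 9.76 and 9.82 on those labelled wild type. The lowest array labelled Fnip1-null lay just above the highest labelled wild type, and the difference was 0.34 (SE 0.12, limma adjusted p = 0.0887). The probes of next highest signal gave 0.27 and 0.24, without a call. The 4 dimmer tested probes gave 0.06, -0.04, -0.19 and -0.08, so probes for Mrpl15 did not share a direction. With the mean of its probes the difference was 0.09. Among members with more than 1 tested probe, all tested probes had the same sign in 19 of 26. Besides that of Mrpl49, none of the 41 further tested probes of members was called by limma, and 7 had an unadjusted p under 0.05, for Mrpl15, Mrpl37, Mrpl43 and Mrpl49, where the share of all tested probes was 28.5%.

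**Figure D3:**
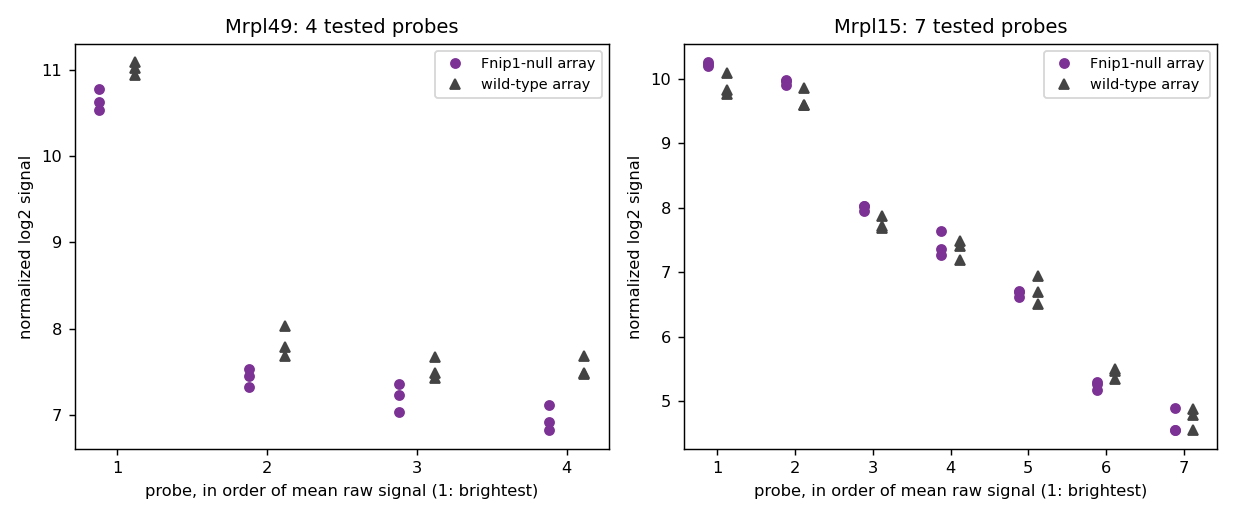
Normalized log2 signal on each array for the 4 tested probes of Mrpl49 and the 7 of Mrpl15, in order of mean raw signal, with circles for arrays labelled Fnip1-null and triangles for arrays labelled wild type. For Mrpl49 the circles lie below the triangles at each probe, and for Mrpl15 they lie above them at the 3 brightest probes.

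Among the other large-subunit genes Mrpl24 (0.24), Mrpl23 (0.23) and Mrpl48 (0.22) followed Mrpl15 on the positive side, and Mrpl27 (-0.26) and Mrpl28 (-0.24) followed Mrpl49 on the negative side, with limma adjusted p between 0.2 and 0.294. Mrpl27, the counterpart of a bacterial protein near the catalytic centre of the ribosome, read 9.65, 9.42 and 9.74 on the arrays labelled Fnip1-null and 9.996, 9.82 and 9.76 on those labelled wild type. Its groups came close but did not overlap. Mrpl43 read 10.67, 10.62 and 10.63 against 10.93, 10.75 and 10.85, also without overlap, and its difference was -0.20 (adjusted p = 0.227). Mrpl22 (0.21), Mrpl54 (0.19) and Mrpl9 (-0.09) were the further large-subunit genes whose groups did not overlap. Mrpl35 read 5.37, 4.19 and 5.51 against 6.39, 5.39 and 5.48. Array B labelled Fnip1-null, where it was not detected, is the low value, the groups overlap, and the difference of -0.73 had a standard error of 0.36 (adjusted p = 0.223). Without that array it was -0.31, and without array A labelled wild type -0.41.

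Further large-subunit genes were chosen for their known roles. Mrpl12, a protein of the stalk that recruits translation factors, read 10.72, 10.61 and 10.75 against 10.70, 10.49 and 10.52 (difference 0.12, adjusted p = 0.51). Mrpl11, at the base of that stalk, averaged 9.09 ± 0.03 with the Fnip1-null label and 9.09 ± 0.09 with the wild-type label (SD, n = 3 each), a difference of -0.0007. Its sign turned under median scaling (0.02), cyclic loess (0.009) and array weights (0.008), and in 2 of the 6 fits with 1 array left out. Mrpl3 and Mrpl44, in which variants cause cardiomyopathy in humans, differed by -0.10 and -0.03.

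Among small-subunit genes Mrps23 and Mrps26 marked the ends of the range. Mrps23 read 10.45, 10.12 and 10.30 on the arrays labelled Fnip1-null and 10.54, 10.47 and 10.51 on those labelled wild type. Its groups did not overlap, and its difference was -0.21 (SE 0.11, limma adjusted p = 0.258). Mrps12, the counterpart of a bacterial protein at the decoding centre, read 10.46, 10.46 and 10.40 against 10.63, 10.55 and 10.58. It too had separate groups, with a difference of -0.15 (adjusted p = 0.358), whereas its other tested probe gave 0.01. Mrps10 (-0.17) and Mrps31 (-0.14) lay next on the negative side. On the positive side were Mrps26 (0.16), Mrps5 (0.12), Mrps35 (0.11) and Mrps16 (0.10). Mrps5 was separate between groups, at 7.60, 7.65 and 7.75 against 7.58, 7.56 and 7.48, with adjusted p = 0.472. Mrps22, a gene of inherited respiratory-chain deficiency in humans, differed by -0.03.

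The 3 genes for relatives of a single bacterial small-subunit protein, Mrps18a, Mrps18b and Mrps18c, can be compared as a family. Mrps18a averaged 9.79 ± 0.04 with the Fnip1-null label and 9.76 ± 0.16 with the wild-type label (SD, n = 3 each). Mrps18b averaged 9.57 ± 0.04 and 9.66 ± 0.14, and Mrps18c 10.14 ± 0.19 and 10.05 ± 0.05. The differences were 0.03, -0.09 and 0.09, each smaller than its standard error of 0.11 to 0.12. Mrps30 differed by -0.05.

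The remaining 4 members, Mrpl19, Mrpl32, Mrpl45 and Mrps14, were detected on no array and were not tested. Their signals lay between 4.20 and 4.72. Mrpl45 read 4.72, 4.51 and 4.72 on the arrays labelled Fnip1-null and 4.29, 4.37 and 4.31 on those labelled wild type, but was not well above background in either group, so no fold is given. Of the tested members 71 were detected on all 6 arrays and Mrpl35 on 5.

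Of the members, 11 lie on chromosome 11, which also carries Fnip1. By gene order in the RefSeq table the nearest was Mrpl22, 29 protein-coding genes away, at 9.46, 9.44 and 9.43 against 9.42, 9.19 and 9.07 (difference 0.21, adjusted p = 0.274). Next came Mrpl55, 79 genes away, at -0.01, and Mrps24, 306 genes away, at 0.02. Farther off, Mrpl27 and Mrps23 had the lowest differences among the tested members of the chromosome.

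Many of these genes start back to back with another gene, and the neighbours gave a readout that the choice of members did not use. The RefSeq promoter table (GRCm38.p6, mouse) matched 67 members, and 26 of them had a divergently transcribed gene whose start lay within 1000 bases. Of these pairs 18 had both genes tested. Over all 9676 tested genes 13.1% were called, 7.89% higher and 5.25% lower. In 17 pairs neither gene was called. In the remaining pair Helq, a DNA helicase gene and the neighbour of Mrps18c, rose by 0.93 (SE 0.12, limma adjusted p = 0.00106), and it kept its call under each of the 19 alternatives it was tested with. Helq read 7.73, 7.42 and 7.60 on the arrays labelled Fnip1-null and 6.71, 6.57 and 6.70 on those labelled wild type, without overlap. Mrps18c read 9.98, 10.35 and 10.10 against 10.09, 9.99 and 10.07, with overlap. Its 95% interval, -0.18 to 0.37, and that of Helq, 0.67 to 1.19, do not meet, although the difference between these neighbours was not tested. Member and neighbour had the same sign in 11 of the 18 pairs, and the share for other neighbouring genes was not computed.

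A pair of members, Mrpl46 and Mrps11, face each other across 41 bases and differed by -0.15 and -0.12, without a call. Mrpl43 is paired with Twnk, the helicase of mitochondrial DNA replication, at -0.20 and 0.24 (adjusted p = 0.227 and 0.142), and both had groups that did not overlap, in opposite directions. Mrps12 is paired with Sars2, a mitochondrial seryl-tRNA synthetase gene, at -0.15 and -0.12. Mrps27 is paired with Ptcd2, at 0.03 and -0.20. Mrpl49 lies next to Fau, which was not analysed here. These pairs were chosen after their values were seen.

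**Figure D4:**
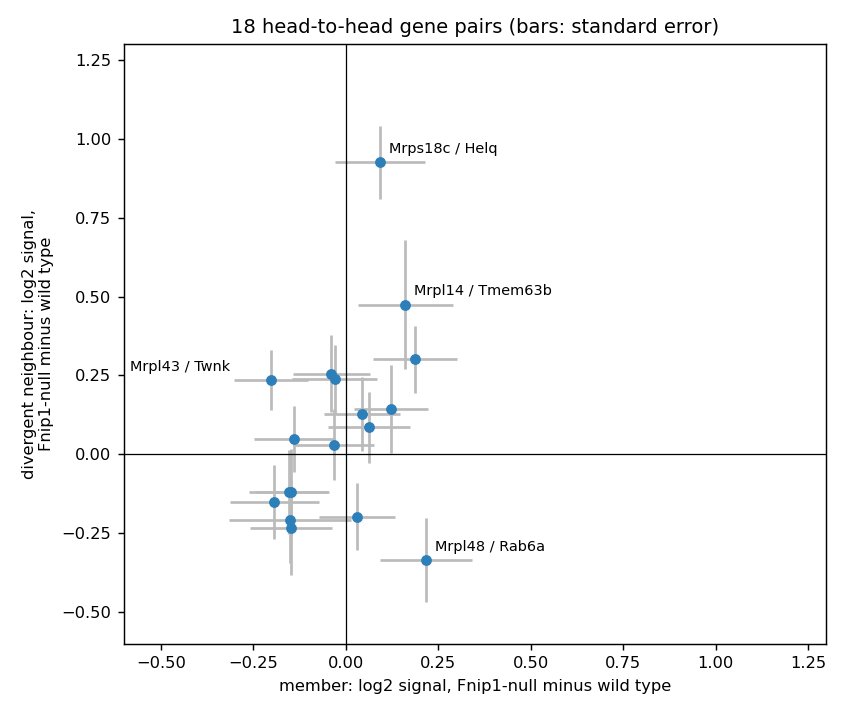
Difference in log2 signal (arrays labelled Fnip1-null minus arrays labelled wild type) of the member on the horizontal axis and of its divergent neighbour on the vertical axis for 18 pairs, with standard errors as bars. Mrps18c with Helq stands at 0.09 and 0.93, and the other neighbours lie between -0.33 and 0.47.

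The bases between the annotated ends of such pairs are shown for the neighbour that rose, for the pair of members, for the member nearest to the threshold and for pairs with another mitochondrial gene. Each is given 5′ to 3′ on the strand of the member, from RefSeq GRCm38.p6, at chr5:100798662-100798758 (plus strand) for Mrps18c and Helq, chr7:78783090-78783130 (minus) for Mrpl46 and Mrps11, chr19:6057756-6057946 (minus) for Mrpl49 and Fau, chr7:28741822-28741956 (minus) for Mrps12 and Sars2, and chr13:99344679-99344766 (plus) for Mrps27 and Ptcd2. Capitals mark the ETS letters CCGGAAG on either strand.
Mrps18c: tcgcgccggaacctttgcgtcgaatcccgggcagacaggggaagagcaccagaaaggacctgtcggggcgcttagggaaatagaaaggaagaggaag
Mrpl46: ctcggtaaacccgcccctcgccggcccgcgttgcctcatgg
Mrpl49: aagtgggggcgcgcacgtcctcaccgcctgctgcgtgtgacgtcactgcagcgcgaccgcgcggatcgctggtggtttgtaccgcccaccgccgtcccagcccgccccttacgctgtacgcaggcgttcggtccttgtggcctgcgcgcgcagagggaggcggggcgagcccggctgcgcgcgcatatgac
Mrps12: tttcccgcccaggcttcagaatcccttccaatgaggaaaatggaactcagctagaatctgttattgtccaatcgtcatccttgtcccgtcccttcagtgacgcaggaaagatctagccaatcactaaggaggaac
Mrps27: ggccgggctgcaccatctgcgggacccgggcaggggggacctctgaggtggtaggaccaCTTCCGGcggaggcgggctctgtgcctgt
Between these annotated ends the only match of the 3 motifs described next is that of Mrps27 and Ptcd2. The longer promoter windows used next also reach into the genes, and there Mrps18c, Mrps12 and Mrps27 hold ETS letters and Mrpl49, Mrps11, Mrps12 and Mrps27 hold YY1 letters.

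Letters of factors known to act on mitochondrial genes were common in the members' promoters, which the choice of members did not use. In windows from 250 bases before to 50 after the start, on both strands, the palindromic NRF1 consensus was present for 13 of 67 members (19.4%) and for 5.19% of all 27025 genes in the table. The ETS letters CCGGAAG, bound by the factor that Gabpa encodes among others, were present for 26 members (38.8%) against 9.93%. The YY1 letters AAGATGGC were present for 12 members (17.9%) against 3.19%. ETS and YY1 matches can overlap, since AAG ends the former and begins the latter, and each was counted for itself. The NRF1 letters, whose sixth base may be any, are shown in capitals between Mrpl32, which was not tested, and Psma2, a proteasome gene, at chr13:14613038-14613241 (minus strand, GRCm38.p6).
Mrpl32: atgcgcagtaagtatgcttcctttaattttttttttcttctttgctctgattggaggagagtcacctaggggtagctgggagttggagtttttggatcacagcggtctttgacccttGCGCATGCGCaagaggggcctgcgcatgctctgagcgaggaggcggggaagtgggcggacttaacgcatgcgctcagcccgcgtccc
A match is a description of the letters in the window. The 27025 genes were not matched to the members for expression or base composition, so the shares do not separate these from membership. Tested members with any of the 3 motifs had a median difference of -0.03 (41 genes) and those with none also -0.03 (23 genes). By motif the median was -0.03 with the NRF1 consensus (11 genes), -0.009 with ETS letters (26 genes) and -0.10 with YY1 letters (11 genes).

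Other genes of the mitochondrial translation pathway are given from lists, beside the same measure over all tested genes (13.1% called, median 0.01). Of 4 mitochondrial ribosomal proteins with other names limma called 0, and 0 had an unadjusted p under 0.05. Dap3 differed by 0.002, Chchd1 by 0.04 and Gadd45gip1 by 0.10, and Ptcd3 stood at -0.62 with a standard error of 0.40 (adjusted p = 0.354). Of 22 assembly and rRNA modification genes 0 rose and 1 fell, with a median of -0.006. That gene was Gtpbp10, a GTPase of large-subunit assembly, at 6.15, 6.25 and 6.22 against 6.63, 6.67 and 6.80 (difference -0.50, adjusted p = 0.0128), and with the mean of its probes it was not called (-0.17, adjusted p = 0.277).

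Of 18 translation and mRNA stability factors 2 rose and none fell, with a median of 0.05. Lrpprc, which binds and stabilises mitochondrial mRNAs, read 7.72, 7.76 and 7.62 on the arrays labelled Fnip1-null and 6.82, 6.61 and 6.84 on those labelled wild type. The groups stood well apart, and Lrpprc rose by 0.95 (SE 0.11, adjusted p = 0.000693). It kept its call in each of 19 alternatives, between 0.59 and 1.07. Rmnd1, an inner membrane protein needed for mitochondrial translation, rose by 0.54 (adjusted p = 0.0201) and lost its call in 5 of 19 alternatives, among them when array B labelled Fnip1-null or array A or C of the wild-type group was left out (adjusted p between 0.0525 and 0.067).

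A list of mitochondrial tRNA synthetase genes also held Qrsl1, Gatb and Gatc, which encode subunits of a tRNA amidotransferase. Of its 16 tested genes 2 rose and none fell, with a median of 0.16. Qrsl1 (-0.17), Gatb (0.165) and Gatc (-0.14) were not called. Tars2, for threonine, rose by 0.48 (adjusted p = 0.0246) and Lars2, for leucine, by 0.41 (adjusted p = 0.0447). Each lost its call in 5 of the 6 fits with 1 array left out. Tars2 was called without array A labelled wild type and Lars2 without array A labelled Fnip1-null. Over all 19 alternatives Tars2 lost its call in 6 and Lars2 in 8, for Lars2 also in the authors' processed values. Of 10 genes of mitochondrial DNA transcription and replication 1 rose, the polymerase gene Polg at 0.52 (limma adjusted p = 0.0269). Polg lost its call in 7 of 19 alternatives. Among these were the authors' processed values with and without a replicate block, and the fit without a detection filter. The others left out array A or C labelled Fnip1-null, or array A or B labelled wild type.

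Among 10 tested regulators of nuclear genes for mitochondrial proteins 3 rose and none fell, with a median of 0.03. They were the 3 members of the PGC-1 coactivator family. Ppargc1a read 6.03, 5.56 and 5.80 against 4.83, 4.66 and 4.52, and was detected on 1 of 3 arrays labelled wild type (difference 1.13, adjusted p = 0.00118). The size for Ppargc1a depends on the handling of background: it was 0.59 with an offset of 50 and 2.22 in the authors' processed values, called each time. Ppargc1b rose by 0.91 (adjusted p = 0.00325) and Pprc1 by 0.59 (adjusted p = 0.0141). Pprc1 was not called in the authors' processed values with a replicate block (adjusted p = 0.0812). The factors whose letters were counted above did not pass: Nrf1 stood at -0.16 (SE 0.11, adjusted p = 0.416) and Gabpa at -0.09 (SE 0.14, adjusted p = 0.707), and the probe for Yy1 was detected on no array. Myc stood at 0.07 (adjusted p = 0.857).

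Cytosolic ribosomal protein genes were taken by symbol, which also admitted Rps19bp1 (-0.06), named for a protein that binds a ribosomal protein. Of 54 such tested genes 2 rose and none fell, with a median of 0.08. Of 35 complex I genes 0 were called by limma and 3 had an unadjusted p under 0.05, with a median of 0.08. The complex I genes of lowest p were Ndufv3 (0.28, adjusted p = 0.11) and Ndufa3 (0.26, adjusted p = 0.148). The cytosolic genes that rose were Rpl3l (2.12), a paralog known from muscle, and Rps27l (0.42), a p53 target, while Rps27l lost its call in 9 of 19 alternatives. A difference between these lists and the mitochondrial ribosomal protein genes was not tested.

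**Figure D5:**
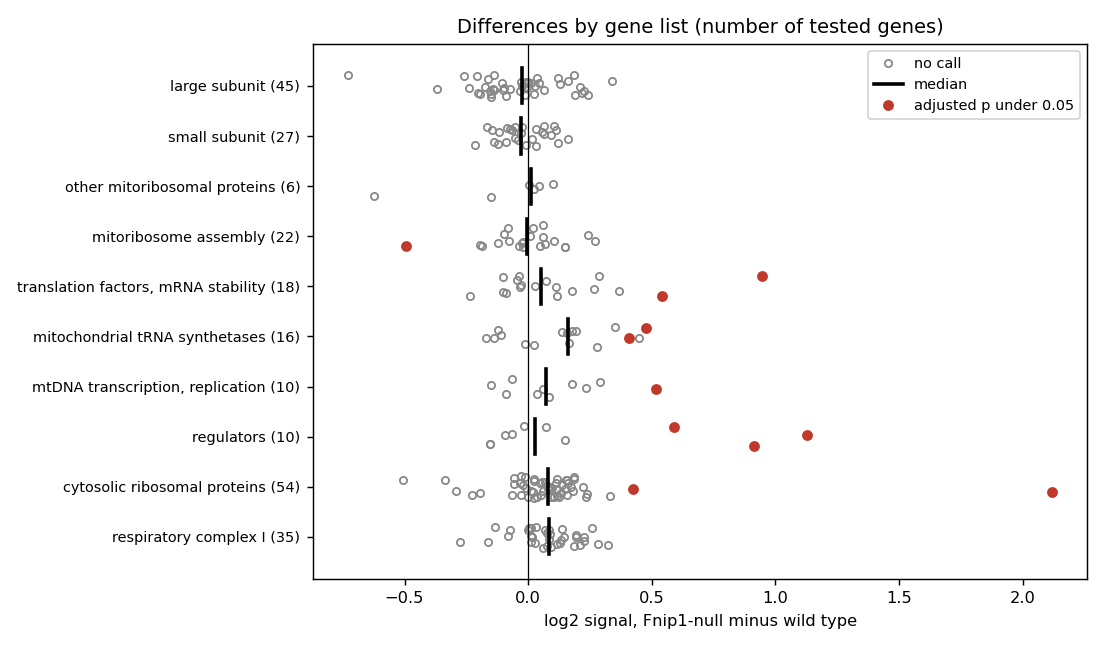
Difference in log2 signal (arrays labelled Fnip1-null minus arrays labelled wild type) of each tested gene by list, with the number of tested genes in brackets, bars for medians and filled points for limma adjusted p under 0.05. Neither subunit of the mitochondrial ribosome has a filled point, and the regulators hold 3, at 0.59, 0.91 and 1.13. The row of other mitoribosomal proteins counts 6 genes, since it repeats Mrpl57 and Mrpl58 from the large-subunit row.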

How the data were processed

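The deposited scanner table holds raw bead intensity for each probe on each array, and beside it the detection p-value, per the file headers. The authors' second table, the series matrix, holds values taken as log2 from their range, with background correction and log base not given in the sources used here. The submitters' processing notes name affy. Scanner columns carry genotype but no replicate number. All 6 pairs of columns were used.

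Intensities were background-corrected from the detection p-values with an offset of 16 and quantile normalized (neqc), and the 18172 probes detected on at least 3 arrays were fitted with lmFit and eBayes (limma 3.58.1, R 4.3.3), with Benjamini-Hochberg adjustment over these probes. The fit was tested on simulated data. Of 34885 probes with 1 platform symbol, 132 matched the rule, 113 of them tested. Related lists, markers and motifs come from general knowledge, and members and lists were chosen with earlier results of these data known. Named genes were called members, the 4 largest differences in each direction per subunit, fixed members (Mrps36 had no probe named for it), members not tested, and called genes of the lists. Sequences and gene order come from RefSeq GRCm38.p6, of which no coordinate was compared with the array. Alternatives changed background, offset, normalization, filter, table, replicate block, Xist split as a block, variance model, weights, probe choice and arrays.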

Additional observations from a re-analysis of the deposited data

How the results depend on the processing

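No count of called members was above 1 in any of the 21 alternatives. The number called lower was 1 in place of 0 without background correction, with an offset of 50, with cyclic loess, with detection on all 6 arrays, with an intensity trend, with the probe of largest variance and with the mean of all tested probes, and the gene was Mrpl49 each time. The number called higher was 1 with array weights, the gene being Mrpl15. With 1 array left out the number called higher ranged from 0 to 1 and the number called lower was 0. The median difference of all members ranged from -0.050 to 0.021, that of the large subunit from -0.070 to 0.010, that of the small subunit from -0.051 to 0.039, and large minus small from -0.040 to 0.016. The cause of these shifts was not tested. Whether the numbers in the labels pair the samples is not settled. Deviations of same-numbered samples in the series matrix correlated at 0.171, -0.00318 and 0.228, and those of differently numbered samples between -0.236 and 0.0743. Samples 1 and 3 labelled Fnip1-null correlated best with the wild-type sample of the same number. Sample 2 labelled Fnip1-null correlated best with sample 3 labelled wild type (0.0617). With the series matrix and a replicate block the calls were 0 and 0 and the median -0.0286, and over all probes 1397 were called against 1935 without the block. With 1 array left out between 1518 and 1882 probes were called, against 2583. Of the 25 tested named members, none changed sign while called, and uncalled values near 0 changed sign in 7 of 150 fits with 1 array left out and in 5 of 324 others. On a log scale after an offset, differences of dim probes are understated, and 4 members below background are not measured.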

Other observations

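Mrpl48, a large-subunit gene, had a pair of further bright probes that varied widely within the group labelled Fnip1-null. They read 10.01, 8.80 and 9.37, and 10.08, 8.62 and 9.40, on arrays A, B and C labelled Fnip1-null. On the arrays labelled wild type they read 9.52, 9.39 and 9.17, and 9.43, 9.23 and 9.13. The chosen probe of Mrpl48 was even by comparison, at 10.02, 9.82 and 9.84 against 9.89, 9.54 and 9.61.

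Mrpl35, of the large subunit, and Ptcd3, of the small subunit of the mitochondrial ribosome, lie on chromosome 6. A single gene, Immt, lies between them in the RefSeq order. Ptcd3 read 6.38, 5.02 and 6.78 on the arrays labelled Fnip1-null and 7.15, 6.26 and 6.64 on those labelled wild type. Like Mrpl35, it was lowest on array B labelled Fnip1-null and highest on array A labelled wild type. Immt, a gene of the inner membrane contact site complex, was even, between 10.42 and 10.75. In the authors' processed table the difference of Mrpl35 was -1.79, without a call.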
